A study of Mus musculus with 12 samples.

Results

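Bulk RNA sequencing of mouse lung tumor allografts was examined for 10 genes of neutrophils, the short-lived granulocytes that leave the blood for inflamed tissue. They were *S100a8*, *S100a9*, *Csf3r*, *Cxcr2*, *Retnlg*, *Il1r2*, *Clec4d*, *Clec4e*, *Trem1* and *Csf3*, taken by name from a list of neutrophil genes, and all 10 were among the 15687 genes of the expression table. The cells were mTC11, also written mTc11, a mouse lung cancer line. They had received a lentivirus with a scrambled shRNA (CTL) or a shRNA against *Filip1l* (*Filip1l*-knockdown), and mixed clones of each were placed under the skin of 8-week-old male C57BL6/J mice in growth factor-reduced Matrigel. Tumors were taken and snap-frozen on day 24, 6 in each group. The hosts were wild-type animals with an intact immune system, so a gene was read from tumor cells and host cells together, and *Filip1l* was targeted only in the injected cells. More than one shRNA construct was made for the study, and which one the sequenced tumors carried was not given in the sources used here.

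Neutrophils are made in the bone marrow under granulocyte colony-stimulating factor, the product of *Csf3*, which acts through the receptor encoded by *Csf3r*. They leave the marrow and enter tissue along gradients of chemokines read by CXCR2. Once there they release calprotectin, the pair of S100A8 and S100A9 that makes up much of their cytosolic protein, and respond to microbial and dead-cell products through receptors such as TREM-1 and the C-type lectins of the Clec4 cluster. Several of these genes are shared with monocytes and macrophages, and *Csf3* itself is made by tumor, stromal and endothelial cells rather than by neutrophils. In bulk tissue a higher level can come from more cells of a type or from more RNA per cell, and these cannot be told apart here.

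Reads on listed genes numbered 17834745 to 32419578 per tumor, with the lowest total in CTL replicate 5. Values are read counts divided by the size factor of each tumor, and 1 read was worth 0.865 to 1.49 units. *Filip1l* itself lay between 1983 and 2542 normalized read counts in CTL tumors and between 1670 and 2184 in *Filip1l*-knockdown tumors (log2 fold change -0.26, SE 0.07, adjusted p = 0.00998), and 5 of the 6 *Filip1l*-knockdown tumors lay below every CTL tumor. The exception was *Filip1l*-knockdown replicate 1, which stood apart in leukocyte genes as well. Its *Ptprc* level, the transcript of the pan-leukocyte protein CD45, was 2464, while the other 5 *Filip1l*-knockdown tumors lay between 864 and 1377 and the CTL tumors between 812 and 1297. The summed level of 6 pan-leukocyte genes was 16769 in that tumor, against 7367 to 9868 in the others of its group and 7900 to 10803 in CTL. Calls that changed without this tumor are therefore given both ways, as are the values it moved most.

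Promoter stretches from RefSeq (GRCm38.p6) are shown for the 5 members that rose together past both thresholds, an adjusted p under 0.05 and a log2 fold change over 1. RefSeq windows were matched by symbol for 9 of the 10 genes, all but *Csf3*, and 250 bases before each start were searched on both strands for TATAAA (the box bound by TBP), TTGCNNAA (a C/EBP motif), TTCNNNGAA (a STAT motif) and GGAAGT (a motif of ETS factors such as PU.1). The stretches read 5′ to 3′ on the strand of the gene, end before the first base that the GENCODE vM21 annotation places in an exon, and carry the matched letters in capitals. They lie at chr3:90668821-90668977 (plus strand) for *S100a8*, chr3:90695722-90695971 (minus) for *S100a9*, chr4:126024409-126024549 (plus) for *Csf3r*, chr1:74153744-74153988 (plus) for *Cxcr2* and chr16:48872358-48872607 (plus) for *Retnlg*.
S100a8: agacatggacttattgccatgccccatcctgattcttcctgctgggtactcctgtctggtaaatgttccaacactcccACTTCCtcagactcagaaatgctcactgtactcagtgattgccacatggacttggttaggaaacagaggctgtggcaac
S100a9: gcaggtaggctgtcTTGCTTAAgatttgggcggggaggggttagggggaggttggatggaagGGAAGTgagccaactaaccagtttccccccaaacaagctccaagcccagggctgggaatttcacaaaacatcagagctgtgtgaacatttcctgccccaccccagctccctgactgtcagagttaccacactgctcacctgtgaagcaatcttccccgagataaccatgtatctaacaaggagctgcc
Csf3r: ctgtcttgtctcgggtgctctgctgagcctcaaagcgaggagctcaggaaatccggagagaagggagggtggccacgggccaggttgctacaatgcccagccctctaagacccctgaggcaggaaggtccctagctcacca
Cxcr2: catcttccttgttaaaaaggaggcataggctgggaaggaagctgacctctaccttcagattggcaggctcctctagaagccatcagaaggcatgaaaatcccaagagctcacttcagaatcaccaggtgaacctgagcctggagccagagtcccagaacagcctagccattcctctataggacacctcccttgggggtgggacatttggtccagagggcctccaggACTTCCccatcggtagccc
Retnlg: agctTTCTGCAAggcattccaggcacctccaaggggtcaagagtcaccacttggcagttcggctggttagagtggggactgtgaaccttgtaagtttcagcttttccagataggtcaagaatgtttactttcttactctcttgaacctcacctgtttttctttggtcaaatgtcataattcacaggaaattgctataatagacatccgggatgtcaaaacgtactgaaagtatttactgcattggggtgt

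GGAAGT or its complement was present in 6 of the 9 searched windows, and in 19.7% of all 32851 RefSeq windows of that length. It was in those of *S100a8*, *S100a9* and *Cxcr2* shown above and in those of *Il1r2*, *Clec4d* and *Trem1*. TTGCNNAA was found in 3 windows, *S100a9*, *Retnlg* and *Clec4e*, against 9.56% of all windows. TATAAA was found 30 bases before the start of *S100a8*, past the end of the stretch shown, and 29 bases before that of *Clec4e*, and 12.4% of all windows held it. TTCNNNGAA was found in *Il1r2* and *Trem1*, in 7.02% of all windows, and in *Il1r2* it shared 1 base with the GGAAGT match. None of the 4 motifs was found in the *Csf3r* window. A match is a run of letters and says nothing here of binding.

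Of the 10 genes, 5 rose and 1 fell past both thresholds in *Filip1l*-knockdown tumors, where 6.2% of all genes tested rose and 3.97% fell by the same rule. The 5 that rose were *S100a8*, *S100a9*, *Csf3r*, *Cxcr2* and *Retnlg*, by 2.52 to 4.81 times in mean level, and the 1 that fell was *Csf3*. By adjusted p alone, 7 rose and 1 fell (21.1% and 20.7% of all genes), *Il1r2* and *Clec4e* being added, and *Clec4d* and *Trem1* did not pass; without *Filip1l*-knockdown replicate 1 these counts were 5 and 2. In 5 genes every *Filip1l*-knockdown tumor lay above every CTL tumor (10.6% of all genes), and in none did every one lie below (10.9% of all genes). The median log2 fold change over the 10 genes was 1.10, and over all genes tested it was 0.01.

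**Figure D1:**
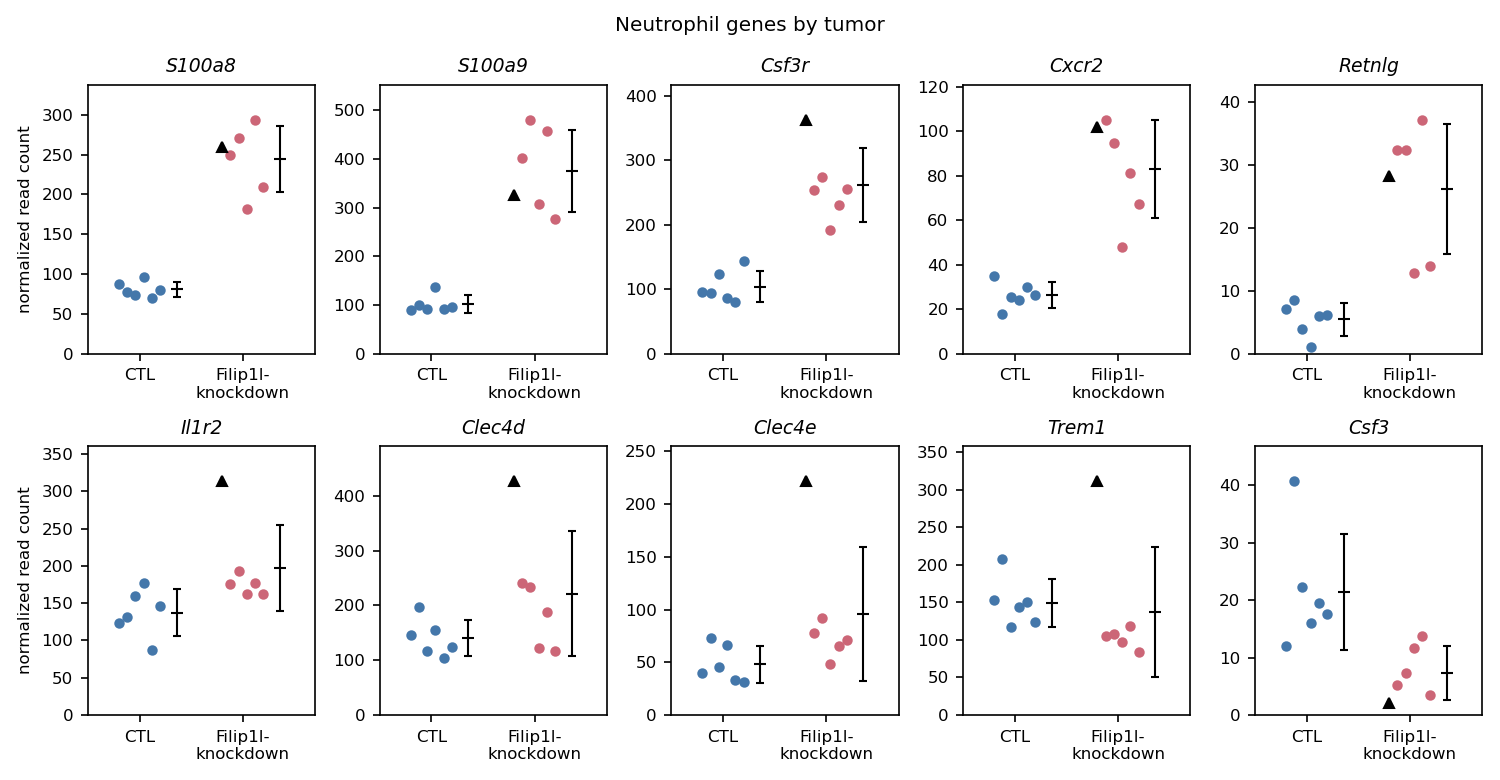
Normalized read count (vertical axes, from 0) of the 10 neutrophil genes in each tumor of the CTL and *Filip1l*-knockdown groups, 6 tumors each. Circles are tumors, the black triangle is *Filip1l*-knockdown replicate 1, and the bars are the mean and SD of each group. The groups separate in the 5 panels of the upper row, and the triangle stands above all other tumors for *Csf3r*, *Il1r2*, *Clec4d*, *Clec4e* and *Trem1*.

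The calprotectin genes *S100a8* (chr3:90668978-90670035) and *S100a9* (chr3:90692632-90695721) are neighbors on mouse chromosome 3 (GRCm38, GENCODE vM21 spans), and their proteins form a calcium- and zinc-binding complex. *S100a8* was lowest at 70.2, with a median of 78.0 and a highest value of 95.7, in CTL tumors, and ran from 182 through a median of 255 to 294 in *Filip1l*-knockdown tumors. The groups did not overlap, and replicate 4 was the lowest *Filip1l*-knockdown tumor. The means were 80.5 ± 9.37 and 244 ± 41.3 (SD, n = 6 each), a 3.03-fold difference (log2 fold change 1.58, SE 0.13, adjusted p = 8.6e-07). *S100a9* ran from 90.0 through 93.7 to 138 in CTL and from 276 through 365 to 481 in *Filip1l*-knockdown tumors. Again no tumor of either group reached the other, and CTL replicate 4 stood above the rest of its group. The means were 101.1 ± 18.3 and 375 ± 83.9 (SD, n = 6 each), 3.71-fold apart (log2 fold change 1.87, SE 0.16, adjusted p = 7.76e-07). Leaving out *Filip1l*-knockdown replicate 1, which ranked in the middle of its group for both, left 1.56 and 1.90.

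Among 12 other S100 genes in the table, 3 rose and 1 fell past both thresholds (6.2% and 3.97% of all genes). Their median log2 fold change was 0.26. *S100g* (log2 fold change 2.23), *S100b* (1.43) and *S100a14* (1.41) rose, none of them a gene typical of neutrophils, and *S100a3* fell (-2.10). *S100a4* also fell, by 0.98 on the log2 scale (adjusted p = 0.000132), and past both thresholds without *Filip1l*-knockdown replicate 1 (-1.04) or without CTL replicate 5 or 6, when 2 genes fell. Receptors that read extracellular calprotectin, *Tlr4*, its partners *Cd14* and *Ly96*, and *Ager*, included none past both thresholds (1 without CTL replicate 5). *Cd14* rose by 0.31 on the log2 scale (adjusted p = 0.0195), whereas *Tlr4* was at -0.05 (adjusted p = 0.523).

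*Csf3r* (chr4:126024550-126044440) encodes the receptor for granulocyte colony-stimulating factor, which sustains neutrophil production and survival. It ran from 80.7 through a median of 94.4 to 144 in CTL tumors and from 191 through 255 to 363 in *Filip1l*-knockdown tumors. The groups did not overlap, and *Filip1l*-knockdown replicate 1 was the highest tumor. The means of 104 ± 24.4 and 261 ± 57.5 (SD, n = 6 each) were 2.52-fold apart (log2 fold change 1.33, SE 0.17, adjusted p = 3.02e-05), and the log2 fold change was 1.23 without replicate 1.

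Its ligand *Csf3* (chr11:98701263-98703629) went the other way. *Csf3* ran from 12 through 18.5 to 40.7 in CTL tumors and from 2.02 through 6.25 to 13.8 in *Filip1l*-knockdown tumors, in which between 2 and 16 reads were counted. Of the 6 *Filip1l*-knockdown tumors, 5 lay below every CTL tumor, and replicate 5 overlapped with CTL replicate 1. The means were 21.3 ± 10.1 and 7.27 ± 4.67 (SD, n = 6 each), 2.94-fold apart (log2 fold change -1.55, SE 0.42, adjusted p = 0.00904). With a pseudocount of 8, which damps changes of low counts, the log2 fold change was -0.94 and no member fell past both thresholds. *Filip1l*-knockdown replicate 1, the tumor highest in *Csf3r*, was the lowest in *Csf3*, and the value without it was -1.30.

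Among 14 other genes around this axis in the table, none rose or fell past both thresholds. By adjusted p alone 3 fell (20.7% of all genes). They were *Jak2* (log2 fold change -0.54, adjusted p = 8.39e-05), a kinase that signals from cytokine receptors, *Socs3* (-0.31, adjusted p = 0.00346), the feedback inhibitor of the receptor, and *Csf1* (-0.34, adjusted p = 0.0492), the macrophage growth factor. *Csf2ra* was the fourth without *Filip1l*-knockdown replicate 1 (-0.32, adjusted p = 0.0215). The receptor's transcription factor *Stat3* was at -0.02 (adjusted p = 0.862), and the myeloid factors *Cebpa*, *Cebpb* and *Spi1* (PU.1) were at -0.06, -0.03 and 0.31 (adjusted p = 0.741, 0.933 and 0.119).

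*Cxcr2* (chr1:74153989-74161246) encodes the chemokine receptor that guides neutrophils out of the marrow and into tissue. It ran from 18.0 through 25.9 to 35.0 in CTL tumors and from 48.0 through 88.1 to 105 in *Filip1l*-knockdown tumors, with no overlap and with replicate 4 the lowest of the latter. The means were 26.4 ± 5.73 and 83.1 ± 22.2 (SD, n = 6 each), a 3.14-fold difference (log2 fold change 1.59, SE 0.22, adjusted p = 6.02e-05). Of 6 chemokines on the list of CXCR2 ligands, 3 rose past both thresholds (6.2% of all genes) and 3 did not pass. *Cxcl5* ran from 390 through 541 to 608 in CTL and from 2155 through 2814 to 3287 in *Filip1l*-knockdown tumors (log2 fold change 2.41, SE 0.12, adjusted p = 9.31e-09). No tumor of either group reached the other, and replicate 1 was the lowest of the *Filip1l*-knockdown tumors. *Cxcl3* (log2 fold change 1.22, adjusted p = 0.00122) and *Cxcl2* (1.10, adjusted p = 0.000746) also rose. Without *Filip1l*-knockdown replicate 1 *Cxcl2* fell just short of the fold threshold (0.996, adjusted p = 0.00132). *Cxcl1* lay between 168 and 295 in CTL and between 169 and 240.4 in *Filip1l*-knockdown tumors (log2 fold change -0.12, adjusted p = 0.578). *Ppbp* and *Cxcl15* were at -0.02 and -0.08 (adjusted p = 0.963 and 0.896), and *Ppbp*, highest in *Filip1l*-knockdown replicate 1, was at -0.22 without that tumor (adjusted p = 0.426). For *Cxcl15*, 2 *Filip1l*-knockdown tumors lay above every CTL tumor and 2 below.

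**Figure D2:**
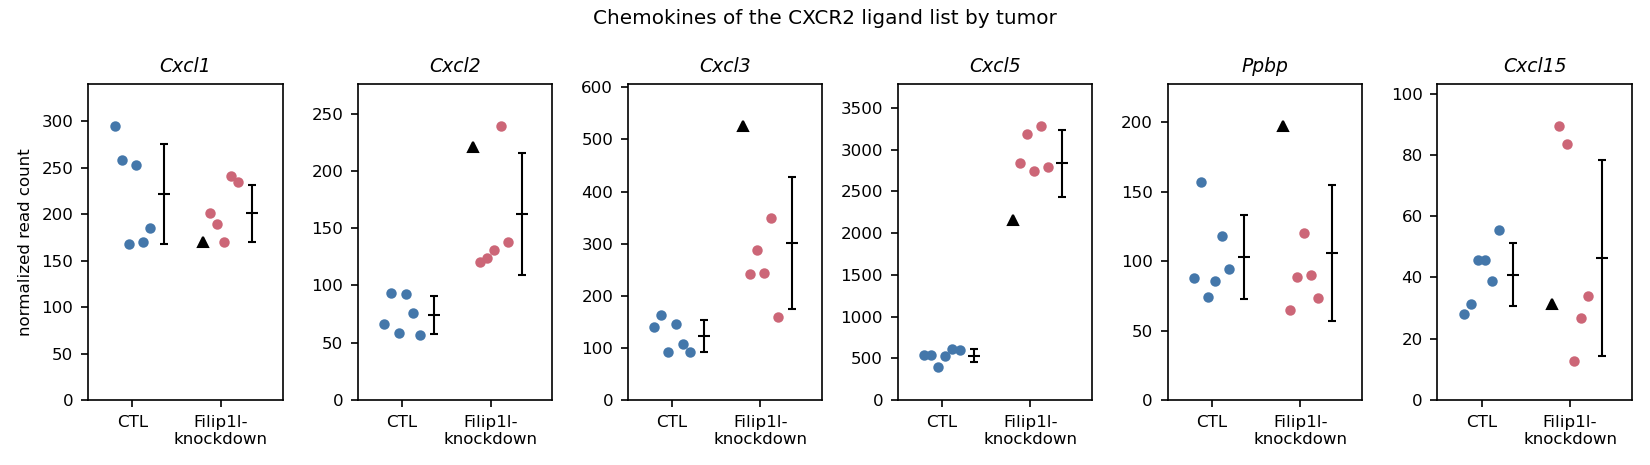
Normalized read count (vertical axes, from 0) of 6 chemokines listed as CXCR2 ligands in each tumor of the CTL and *Filip1l*-knockdown groups, 6 tumors each. Circles are tumors, the black triangle is *Filip1l*-knockdown replicate 1, and the bars are the mean and SD. *Cxcl5* and *Cxcl2* separate the groups, *Cxcl3* overlaps at its edge, and *Cxcl1*, *Ppbp* and *Cxcl15* do not separate them, with *Cxcl15* spread more widely in *Filip1l*-knockdown than in CTL tumors.

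A group of 4 genes that hold neutrophils in place or bind chemokines without signaling through G proteins was also read. *Ackr1*, an atypical chemokine receptor of venules and red cells, rose (log2 fold change 1.47, adjusted p = 0.000576), as did *Cxcl12*, the marrow retention signal (1.25, adjusted p = 0.00892; 0.93 without *Filip1l*-knockdown replicate 1). Its scavenging receptor *Ackr3* fell (-0.42, adjusted p = 0.000157), and its signaling receptor *Cxcr4* was at 0.17 (adjusted p = 0.438).

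*Retnlg* (chr16:48872621-48874496) encodes a resistin-like protein found in mouse bone marrow and blood neutrophils. Its normalized read count ran from 0.997 through 6.07 to 8.52 in CTL tumors and from 12.7 through 30.3 to 37.2 in *Filip1l*-knockdown tumors. CTL replicate 4 held 1 read, below the 3 reads taken as the floor. The groups did not overlap, and replicates 4 and 6 of *Filip1l*-knockdown were lower than the other 4. The means of 5.43 ± 2.64 and 26.1 ± 10.3 (SD, n = 6 each) were 4.81-fold apart (log2 fold change 2.12, SE 0.42, adjusted p = 0.00100), and the log2 fold change was 1.31 with a pseudocount of 8.

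For each of these 5 higher genes an exact two-sided permutation test over all 924 arrangements of the labels gave p = 0.00216, the smallest it can give with 6 against 6. The exact permutation p was 0.00433 for *Csf3*, 0.0130 for *Il1r2*, 0.0260 for *Clec4e*, 0.128 for *Clec4d* and 0.437 for *Trem1*.

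*Il1r2* (chr1:40074079-40125231) encodes the decoy receptor that binds interleukin-1 without passing on its signal. It ran from 86.6 through 139 to 176 in CTL tumors and from 162 through 176 to 314 in *Filip1l*-knockdown tumors. The groups overlapped, with 2 *Filip1l*-knockdown tumors above every CTL tumor, and replicate 1 far above the rest. The means of 137 ± 31.2 and 197 ± 58.2 (SD, n = 6 each) gave a log2 fold change of 0.51 (SE 0.19, adjusted p = 0.0449). The call was lost without any 1 of CTL replicates 1, 2, 5 and 6 or *Filip1l*-knockdown replicates 1, 2, 3 and 5 (adjusted p from 0.0575 to 0.0970 in these 8 fits), and the log2 fold change was 0.37 without *Filip1l*-knockdown replicate 1.

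Among 8 other genes of the interleukin-1 axis, 2 rose past both thresholds and none fell past both (6.2% and 3.97% of all genes). *Il1a*, an alarm cytokine, ran from 97.0 through 107 to 167 in CTL and from 231 through 382 to 530 in *Filip1l*-knockdown tumors (log2 fold change 1.64, adjusted p = 1.06e-05). *Il1rn*, the secreted receptor antagonist, rose as well (1.04, adjusted p = 3.46e-05), and slipped under the fold threshold without CTL replicate 2 or *Filip1l*-knockdown replicate 1, 2 or 3, when 1 gene was left. *Il1b* rose by less (0.67, adjusted p = 0.0199). The signaling receptor *Il1r1* fell (-0.81, adjusted p = 5.73e-05), with every *Filip1l*-knockdown tumor below every CTL tumor.

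*Clec4d* and *Clec4e* lie next to each other on chromosome 6 (chr6:123262111-123275265 and chr6:123281789-123289870) and encode C-type lectins, MCL and Mincle, which share the adaptor FcRγ and signal through *Syk* and *Card9*. *Clec4d* ran from 105 through 135 to 197 in CTL and from 116 through 210.1 to 427 in *Filip1l*-knockdown tumors. The groups overlapped widely, with replicate 1 highest and replicates 4 and 6 of *Filip1l*-knockdown below the CTL median. The means were 141 ± 33.1 and 221 ± 114 (SD, n = 6 each), and the log2 fold change of 0.53 (SE 0.28, adjusted p = 0.139) did not pass, and was 0.32 without replicate 1 (SE 0.22, adjusted p = 0.271). *Clec4e* ran from 30.9 through 42.8 to 72.9 in CTL and from 48.0 through 74.4 to 222 in *Filip1l*-knockdown tumors. In 3 *Filip1l*-knockdown tumors the level was above every CTL tumor, and replicate 1 was 3.14 times the median of the other 5. The means of 48.2 ± 17.7 and 96.0 ± 63.3 (SD, n = 6 each) gave a log2 fold change of 0.87 (SE 0.33, adjusted p = 0.0478), and 0.59 without replicate 1 (adjusted p = 0.0734). The call was lost without any 1 of 9 tumors, CTL replicates 1, 3, 5 and 6 and *Filip1l*-knockdown replicates 1, 2, 3, 5 and 6 (adjusted p from 0.0516 to 0.101).

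*Trem1* (chr17:48232768-48246924) encodes a receptor that amplifies inflammatory signals in neutrophils and monocytes through the adaptor *Tyrobp* (DAP12). It ran from 118 through 147 to 207 in CTL and from 83.9 through 106 to 312 in *Filip1l*-knockdown tumors. Among *Filip1l*-knockdown tumors, 4 lay below every CTL tumor and replicate 1 lay above every one. The means of 149 ± 31.8 and 137 ± 86.1 (SD, n = 6 each) gave a log2 fold change of -0.26 (SE 0.27, adjusted p = 0.475). Without replicate 1 it was -0.52 (SE 0.15, adjusted p = 0.0129), a fall past the adjusted p threshold but not the fold threshold. Among 12 partners and relatives of these receptors in the table, none passed both thresholds. By adjusted p alone 3 rose (21.1% of all genes), *Syk* (log2 fold change 0.87, adjusted p = 4.45e-05), *Malt1* (0.43, adjusted p = 0.00208) and *Clec4a2* (0.50, adjusted p = 0.0377). *Tyrobp* and *Fcer1g* were at 0.20 and 0.16 (adjusted p = 0.253 and 0.484). Without *Filip1l*-knockdown replicate 1, *Clec4n* (Dectin-2) fell by 0.42 (adjusted p = 0.0122) and *Clec4a2* no longer passed.

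**Figure D3:**
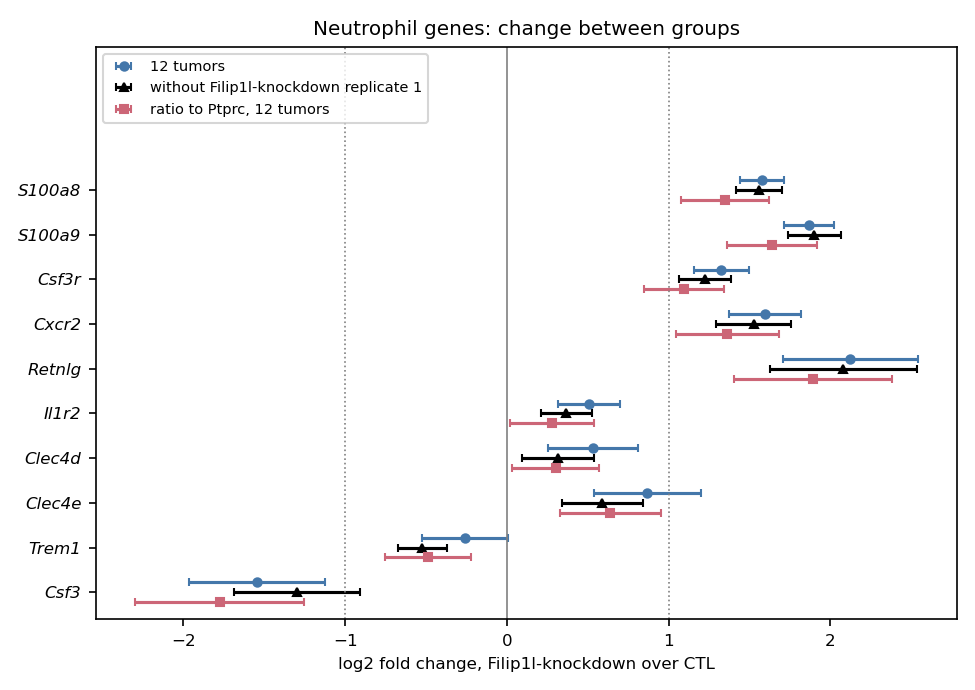
Log2 fold change of *Filip1l*-knockdown over CTL (horizontal axis) of the 10 neutrophil genes, with bars of 1 SE. Circles use all 12 tumors, triangles leave out *Filip1l*-knockdown replicate 1, and squares give the change of the ratio to *Ptprc*; dotted lines mark 1 and -1. *S100a8*, *S100a9*, *Csf3r*, *Cxcr2* and *Retnlg* lie to the right of 1 in all 3 fits, and *Trem1* moves from -0.26 to -0.52 when replicate 1 is left out.

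To set the members against the leukocyte RNA of the same tumor, each gene was divided by *Ptprc* and the fit was repeated over all genes. On this scale 5 members were higher and 1 was lower with adjusted p under 0.05 (5.57% and 10.3% of all genes), and 4 did not pass. Per 1000 normalized counts of *Ptprc*, *S100a9* was at 70.5 to 169 in CTL and 133 to 529 in *Filip1l*-knockdown tumors, and *S100a8* at 57.0 to 118 and 105 to 340.3. In both genes the groups overlapped only where *Filip1l*-knockdown replicate 1, the lowest of its group on this scale, lay below CTL replicate 4. *Csf3r*, at 71.2 to 121 against 147 to 266, did not overlap, and neither did *Cxcr2* or *Retnlg*. The log2 differences were 1.35 (SE 0.27, adjusted p = 0.000169) for *S100a8*, 1.64 (SE 0.28, adjusted p = 1.03e-05) for *S100a9*, 1.10 (SE 0.25, adjusted p = 0.000933) for *Csf3r*, 1.36 (SE 0.32, adjusted p = 0.00118) for *Cxcr2* and 1.89 (SE 0.49, adjusted p = 0.00365) for *Retnlg*. *Csf3* was lower relative to *Ptprc* (-1.78, SE 0.52, adjusted p = 0.0126), though not without CTL replicate 2 (-1.56, adjusted p = 0.0577). *Il1r2*, *Clec4d*, *Clec4e* and *Trem1* were at 0.28, 0.30, 0.64 and -0.49 (adjusted p = 0.528, 0.505, 0.180 and 0.248). The median over all genes on this scale was -0.22. With group means removed, levels correlated with *Ptprc* over the 12 tumors at 0.73 for *Csf3r*, -0.04 for *S100a8*, -0.41 for *S100a9* and -0.67 for *Csf3*. The other members lay between 0.28 (*Retnlg*) and 0.62 (*Trem1*). The ratio is not a level per leukocyte for members that other cells can also make.

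Levels of different members were compared per kilobase of exon. *S100a9* was highest in both groups, at 194 ± 35.0 (CTL) and 719 ± 161 (*Filip1l*-knockdown; SD, n = 6 each), followed by *S100a8* at 116 ± 13.5 and 352 ± 59.5, *Clec4d* at 88.0 ± 20.7 and 138 ± 71.2, and *Il1r2* at 72.0 ± 16.4 and 103 ± 30.5. *Clec4d* and *Il1r2* lay closer together than 1 SD in each group. At the low end of CTL, *Clec4e* (9.70), *Retnlg* (9.15) and *Cxcr2* (8.67) were within 1 SD of each other. In *Filip1l*-knockdown tumors *Csf3* was last, at 5.14 ± 3.31, and *Csf3r*, at 72.4 ± 15.9, had passed *Trem1*, at 45.9 ± 28.7, a gap of less than 1 SD.

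A wider list of genes typical of neutrophils, with 20 of its 24 genes in the table, was read for comparison. It was drawn up with earlier results of these tumors known. Of these, 10 rose and none fell past both thresholds (6.2% and 3.97% of all genes), and 11 rose by adjusted p alone (21.1% of all genes). The median log2 fold change was 1.00. *Cd177*, a surface protein of neutrophils, went from 1.00 to 6.17 in CTL to between 26.4 and 66.6 in *Filip1l*-knockdown tumors (log2 fold change 3.43, SE 0.35, adjusted p = 4.38e-06). CTL tumors held 1 to 7 reads of *Cd177*, and 4 of them were at or under the floor of 3 reads. *Hdc*, the histamine-making enzyme (1.68), *Lrg1* of the granules (1.58), *Acod1*, the itaconate-making enzyme (1.53), and *Pglyrp1*, a granule peptidoglycan-binding protein (1.44), rose as well. Per kilobase of exon, *Pglyrp1* stood at 795 in CTL and 2087 in *Filip1l*-knockdown tumors, and *Lrg1* at 336 and 1018. The highest member, *S100a9*, stood at 194 and 719. *Filip1l*-knockdown replicate 1 was the lowest of its group in *Lrg1* and *Pglyrp1*. Which cells carried this RNA was not tested, and none of the genes that rose was shown here to come from neutrophils alone. *Mmp9*, a gelatinase that macrophages and tumor cells also make, was at -0.66 (adjusted p = 0.116) and fell by 0.96 without *Filip1l*-knockdown replicate 1 (adjusted p = 0.00265). *Itgam*, which encodes CD11b of all myeloid cells, was at 0.31 (adjusted p = 0.236) with all tumors and at 0.12 without that tumor (adjusted p = 0.481), in which it was highest. With all tumors, 9 genes of the list did not pass by adjusted p. The others were *Padi4* (-0.22, adjusted p = 0.487), *Fcgr4* (-0.01, adjusted p = 0.972), *Asprv1* (0.36, adjusted p = 0.290), *Ltb4r1* (0.37, adjusted p = 0.176), *Mmp25* (0.60, adjusted p = 0.0542), *Slpi* (0.75, adjusted p = 0.195) and *Fpr2* (0.90, adjusted p = 0.0566). Without *Filip1l*-knockdown replicate 1, 8 genes of the wider list rose past both thresholds and 9 by adjusted p, and 1, *Mmp9*, fell by adjusted p.

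**Figure D4:**
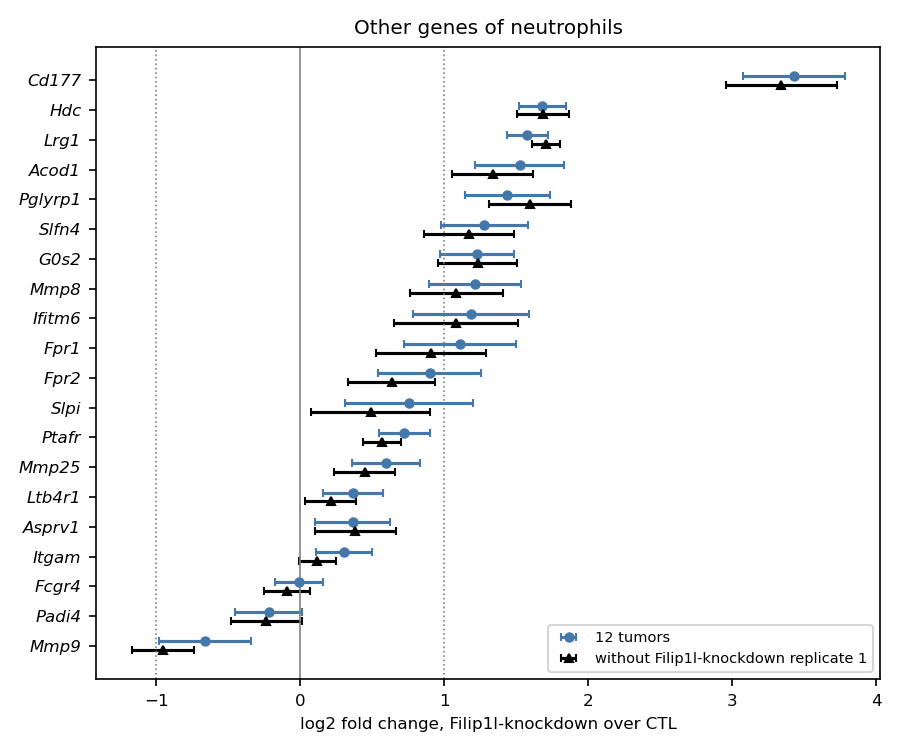
Log2 fold change of *Filip1l*-knockdown over CTL (horizontal axis) of 20 further genes typical of neutrophils, ordered by value, with bars of 1 SE. Circles use all 12 tumors, triangles leave out *Filip1l*-knockdown replicate 1, and dotted lines mark 1 and -1. *Cd177* lies farthest right at 3.43 and *Mmp9* farthest left at -0.66.

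A list of 11 genes of neutrophil formation in the marrow held granule genes, the transcription factors *Gfi1* and *Cebpe*, and *Chil3*. In the table were 6 of them, and 1 of these rose past both thresholds (16.7%, beside 6.2% of all genes). That gene was *Lcn2* (log2 fold change 1.56, adjusted p = 6.7e-05), which epithelial cells make too. *Ltf* (-0.09), *Prtn3* (0.34) and *Ngp* (0.89) did not pass (adjusted p = 0.864, 0.598 and 0.510), and *Ngp* had no read in at least 1 tumor of each group. *Ngp* stood at 100.8 in *Filip1l*-knockdown replicate 1 and at 0 to 7.30 in the other 5, and its log2 fold change without that tumor was 0.05 (adjusted p = 0.965). *Chil3* joined the calls when CTL replicate 3 was left out, giving 2. Of the 6 genes of the phagocyte oxidase, none passed both thresholds, and *Rac2* rose by 0.56 (adjusted p = 0.0321; 0.0600 without *Filip1l*-knockdown replicate 1).

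Markers of other cells were counted beside these. Of all genes, 6.2% rose and 3.97% fell past both thresholds, and 21.1% rose and 20.7% fell by adjusted p alone. None of 6 pan-leukocyte genes passed, nor any of 7 dendritic genes (1 without *Filip1l*-knockdown replicate 4) or 7 T-cell genes, and among 10 macrophage genes 1, *Cd68*, rose by adjusted p and none passed both thresholds. Without *Filip1l*-knockdown replicate 1 *Cd68* no longer passed. The macrophage genes summed to 16846 to 23549 in CTL and 14715 to 26932 in *Filip1l*-knockdown tumors, the dendritic genes to 1271 to 1966 and 1293 to 3136 (at most 1759 without *Filip1l*-knockdown replicate 1), and the T-cell genes to 909 to 2413 and 1068 to 1993. Among 6 monocyte genes, *Plac8* (log2 fold change 0.72, adjusted p = 0.00127) and *Nr4a1* (0.29, adjusted p = 0.0439) rose by adjusted p, *Cx3cr1* fell by it (-0.44, adjusted p = 0.0292), and *Vcan* fell past both thresholds (-1.19, adjusted p = 0.000725). *Nr4a1* no longer passed without *Filip1l*-knockdown replicate 1. The monocyte genes summed to 15233 to 17746 and 17847 to 29837, with *Plac8* alone at 11539 to 14642 and 13905 to 27811. The other 5 summed to 2880 to 3729 and 2020 to 3942. Mast cell and basophil genes had 1 of 7 past both thresholds, *Mcpt4* (log2 fold change 2.61, adjusted p = 0.000221), and summed to 1096 to 3352 against 1728 to 6137. Without *Mcpt4* the other 6 summed to 921 to 2703 in CTL and 1034 to 1502 in *Filip1l*-knockdown tumors. Eosinophil genes had 1 of the 2 in the table past both (2 without CTL replicate 6), at 14.9 to 94.3 against 42.1 to 94.3. *Cd79b* was the only B-cell gene in the table and rose by 1.01 (11.4 to 29.9 against 27.4 to 62.9). It was under the fold threshold without CTL replicate 2 or 3 or *Filip1l*-knockdown replicate 1 or 6. Epithelial genes rose past both thresholds in 5 of 7, and summed to 135655 to 176354 in CTL and 190752 to 355170 in *Filip1l*-knockdown tumors. Skeletal muscle genes rose in 7 of 8 (2524 to 13236 against 5292 to 94433), and in 3 without CTL replicate 2, 3 or 5 or *Filip1l*-knockdown replicate 1, 3 or 4. All 5 endothelial genes rose by adjusted p and none by the fold threshold (2308 to 2956 against 2966 to 4687). Of 11 keratinocyte genes, which matter because keratinocytes also make *S100a8* and *S100a9*, 1 rose and 1 fell past both thresholds (2368 to 5989.7 against 4525 to 8265). Without *Sprr1a*, the highest of them, the other 10 summed to 1541 to 4846 in CTL and 2111 to 5198 in *Filip1l*-knockdown tumors. Of 8 fibroblast genes none passed both (169538 to 282023 against 79692 to 261539, or at most 171648 without *Filip1l*-knockdown replicate 1). By adjusted p, 2 fibroblast genes fell, *Col1a1* (-0.76, adjusted p = 0.0108) and *Col1a2* (-0.97, adjusted p = 0.00626), and *Dpt* rose (0.63, adjusted p = 0.0320). Without *Filip1l*-knockdown replicate 1, 5 fell by adjusted p, 2 of them past both thresholds, and none rose. The count past both was 1 without *Filip1l*-knockdown replicate 3 or CTL replicate 4 or 5. The part of these cells in the results above was not tested.

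Members were also compared from tumor to tumor. After the group means were removed, the 45 pairs of members had correlations of -0.592 to 0.861 over the 12 tumors, with a median of 0.293, and those of *Csf3* with the other 9 had a median of -0.304. These are descriptions, since all genes of a tumor share its library and size factor. Within groups 6 pairs were tested, giving 24 values, and none passed after adjustment (lowest adjusted p = 0.247, exact permutation). *S100a8* and *S100a9* had r = 0.738 in CTL and 0.792 in *Filip1l*-knockdown tumors (exact permutation p = 0.0792 and 0.0681), rho = 0.371 and 0.829 (exact p = 0.497 and 0.0583), and r = 0.719 and 0.557 after leaving out the 2 tumors farthest from the median of *S100a8*. *Clec4d* and *Clec4e* had r = 0.824 and 0.888 (exact permutation p = 0.05 and 0.0167), rho = 0.714 and 0.771 (exact p = 0.136 and 0.103), and r = 0.585 and 0.954 without the 2 farthest tumors. *Csf3* and *Csf3r* had r = -0.830 in *Filip1l*-knockdown tumors (exact permutation p = 0.0347), rho = -0.771 (exact p = 0.103) and r = -0.707 without the 2 farthest tumors, and r was -0.00760 in CTL (exact p = 0.988). In CTL and *Filip1l*-knockdown tumors, r was -0.037 and 0.759 for *Csf3r* with *Cxcr2*, and 0.060 and 0.846 for *Cxcr2* with *Retnlg*. For *S100a8* with *Csf3r* it was -0.150 and 0.498. Without the 2 farthest tumors these pairs had -0.168 and 0.269, 0.780 and -0.814, and 0.734 and -0.493.

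The genes most like the members across tumors were sought among those averaging 50 normalized counts or more. Likeness was the correlation, with group means removed, to the mean standardised level of the 9 members other than *Csf3* over 12 tumors. The closest were *Tsku* (r = 0.957), which encodes a secreted leucine-rich proteoglycan, and *Sema7a* (0.933), a membrane-anchored semaphorin. They were followed by *Gpr153* (0.917), *Clmp* (0.910), *Ms4a6d* (0.908), *Sparc* (0.907), *Cpz* (0.904), *Ctsd* (0.899), *Col3a1* (0.899) and *Serpinf1* (0.892). In all 10 the highest *Filip1l*-knockdown tumor was replicate 1, and without it the correlations ran from 0.768 to 0.922 over 11 tumors. Between groups these genes did not share the rise of the members, since *Gpr153* (log2 fold change -1.11, adjusted p = 0.000206), *Sparc* (-0.57, adjusted p = 0.0246) and *Serpinf1* (-0.71, adjusted p = 0.0122) fell and the other 7 did not pass.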

How the data were processed

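RNA from 12 allograft tumors, 6 a group, was sequenced as poly(A) libraries (NEBNext Ultra II). Per the submitters' processing notes and the methods of the study, reads were demultiplexed with bcl2fastq 2.20, trimmed with Trimmomatic 0.36, aligned with STAR 2.5.2b (mm10) and counted per gene with featureCounts of Subread 1.5.2. The authors divided the counts by DESeq2 size factors and deposited the resulting normalized signal, for 15687 genes whose lowest mean was 9.28; values are not corrected for gene length. IDs of 15655 genes matched a GENCODE vM21 symbol. Values were whole multiples of 1 step per tumor (tolerance 1e-06), so reads were recovered and totals computed; 100% of values came out whole.

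The main test was limma 3.58.1 (R 4.3.3) with a mean-variance trend on log2(value + 1), without covariates, Benjamini-Hochberg adjusted over all genes with a mean of at least 5; fold changes on this scale understate those of low genes. Thresholds were an adjusted p under 0.05 and a log2 fold change beyond 1. The ratio to *Ptprc* was fitted alike. Single genes were also tested by exact permutation (scipy 1.17.1). Alternatives were other pseudocounts, filters and scalings, no trend, a replicate block, leaving out each tumor, and edgeR 4.0.16 or DESeq2 1.42.0 on recovered reads, which called 972 and 1040 genes higher and 597 and 612 lower, against 973 and 623 with limma. The limma script was tested on simulated data.

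The 10 members, the other lists and the marker lists were chosen with earlier results of these data known. Genes named are the members, genes of the pathway and marker lists, *Filip1l*, *Ptprc*, and the 10 genes most like the members. No list was given a set test. A gene of the wider neutrophil list and a feature of the cell line are not reported here. The labels call the tumors of a group biological replicates; they grew from transduced lines of 1 cell line, and how many *Filip1l*-knockdown lines they came from was not given in the sources used here, so p-values measure the spread between tumors. The floor of 3 reads covers counting error only.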

Additional observations from a re-analysis of the deposited data

Results flagged for a closer look

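Of the 20 sets of 6 tumors (10 genes in 2 groups), 5 held a tumor whose gap to its nearest neighbor exceeded Dixon's 95% critical value as a share of the range. Chance gives about 1 in 20 for independent sets of normally distributed values. The gaps here were taken on normalized counts, and the sets share tumors, so 5 of 20 cannot be set against that rate. *Clec4e* correlated with *Il1r2* at 0.756 and with *Trem1* at 0.812, with group means removed. In 3 of the 5 sets the tumor was *Filip1l*-knockdown replicate 1, highest in *Trem1* (312, next 118), *Clec4e* (222, next 91.8) and *Il1r2* (314, next 193), and also the tumor with the highest *Ptprc* and pan-leukocyte levels. CTL replicate 4 was highest in *S100a9* (138, next 100.4), and CTL replicate 2 was highest in *Csf3* (40.7, next 22.4). The source of these values was not tested.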

How the results depend on the processing

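*S100a8*, *S100a9*, *Csf3r*, *Cxcr2* and *Retnlg* stayed higher with adjusted p under 0.05 in every alternative that tested them, and *Csf3* stayed lower, as changes between groups; a filter at a mean of 20 removed *Retnlg* and *Csf3* from the test, leaving 0 members lower by either rule. With a pseudocount of 8, 0 members fell past both thresholds. No member changed sign. *Il1r2* lost its call with the same 75th percentile (0.50), the same total (0.47), limma without a trend (0.51) and the replicate block (0.51, adjusted p = 0.0653), and *Clec4e* with a pseudocount of 8 (0.78), the same 75th percentile (0.86), the same total (0.83), no trend (0.87) and the replicate block (0.87, adjusted p = 0.0676). Leaving out 1 tumor at a time, *Il1r2* ran from 0.37 to 0.59, *Clec4e* from 0.59 to 1.03, *Trem1* from -0.52 to -0.15 and the *Csf3* to *Ptprc* ratio from -2.10 to -1.34; members lower by adjusted p numbered 1 to 2. The cause was not tested.

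The replicate numbers did not pair the tumors: deviations of same-numbered tumors correlated at -0.269 to 0.0990. With the replicate block 953 genes rose and 601 fell, against 973 and 623, and no other member changed its call. Among 1060 recomputed list counts and correlations, 41 moved and 0 reversed. Depth limited *Csf3* and *Retnlg*, with down to 2 and 1 reads in a tumor.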
